A study of Bos taurus with 5 samples.

Results

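Imprinted genes are expressed mainly from a single parental copy, because marks laid down in the germ line differ between the copies. Many of these genes act in growth, in the placenta or in the brain. In the blastocyst, which consists of the trophectoderm, the future placental tissue, and the inner cell mass, these marks have to survive the reprogramming of the embryonic genome. Imprinting in cattle is not known for every gene that is imprinted in human or mouse, and it can differ between tissues and stages. The genes described here are those, imprinted in cattle, human or mouse, under which the study lists heterozygous SNP in transcripts of single embryos. They comprise 8 genes under 9 Ensembl IDs, out of 24616 features in the table, because *NNAT* appears with 2 IDs. The other genes are *UBE3A* (ENSBTAG00000002487), *GAB1* (ENSBTAG00000002813), *NAT15* (ENSBTAG00000004875), *COPG2* (ENSBTAG00000017245), *BLCAP* (ENSBTAG00000003209), *NAP1L5* (ENSBTAG00000010128) and *ASB4* (ENSBTAG00000018185). By the study's list, *NNAT* and *NAP1L5* are imprinted in cattle, *UBE3A* and *NAT15* in mouse, and *GAB1*, *BLCAP*, *COPG2* and *ASB4* in human. Since a SNP can be called only where reads fell, the list was not drawn independently of expression. The names come from the study's own pairing of names and IDs. All 8 names are known for cattle in RefSeq (ARS-UCD2.0), 7 as current symbols and *NAT15* as an older name of *NAA60*.

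The samples were 5 single Holstein blastocysts, produced by in vitro fertilization with semen of a bull of the same breed and collected on day 7 of culture in KSOM medium with BSA, to which serum was added during culture. The zona pellucida and adhering cumulus cells were removed with pronase before lysis. Each embryo was amplified and sequenced on its own, all were handled alike, and they form a single group, so that no treatment or genotype was compared. The labels give no sex. From Y-linked genes and *XIST* in these same libraries, blastocyst 3 was taken as female and the other embryos as male in the original work. With a single embryo assigned as female, sex and other differences of blastocyst 3 cannot be told apart, and values without it are given where it was the highest or the lowest embryo. RPKM is the number of reads on a gene divided by the length of its exons and by the mapped reads of the library, which allows genes and embryos to be set side by side. Relative to blastocyst 1, the sequencing depth read from low RPKM values was 1.08, 1.15, 1.16 and 1.18 in blastocysts 2 to 5. The RPKM values sum the reads of both alleles, and the allele counts were not analysed here. An embryo is a mixture of cell types, so fewer cells of a type and less RNA per cell cannot be told apart. The table pairs no other ID with a name, so markers of trophectoderm, inner cell mass and cumulus cells could not be checked.

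Of the 9 features, 5 reached 0.4 RPKM on average, the level from which the study counts a gene as expressed, against 38.6% of all features in the table. None of these 5 is listed by the study as imprinted in cattle. The same 5 also reached 0.3 RPKM, the lower level applied to imprinted genes in the original work. The other 4 were under it on average and in every embryo. The study, however, counts the genes of its SNP list among the imprinted genes above 0.3 RPKM, which the deposited values of these 4 do not show. The reason for this difference was not tested. In every single embryo, 4 of the 9 reached 0.4 RPKM, against 30.6% of all features. These 4 were *UBE3A*, *GAB1*, *NAT15* and *COPG2*, and each of them was also above 1 RPKM in every embryo. *BLCAP* reached 0.4 RPKM in 3 of the 5 embryos, *NAP1L5* and the *NNAT* feature ENSBTAG00000003212 in none. *ASB4* and the second *NNAT* feature, ENSBTAG00000045928, were listed at 0 in all 5 embryos, as were 32.9% of all features. Summed over the 9 features, the level was 31.6 RPKM ± 5.37 (SD, n = 5), with the lowest sum in blastocyst 1 (25.6 RPKM) and the highest in blastocyst 5 (38.5 RPKM). This was between 0.00825% and 0.0135% of the summed RPKM of an embryo.

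**Figure D1:**
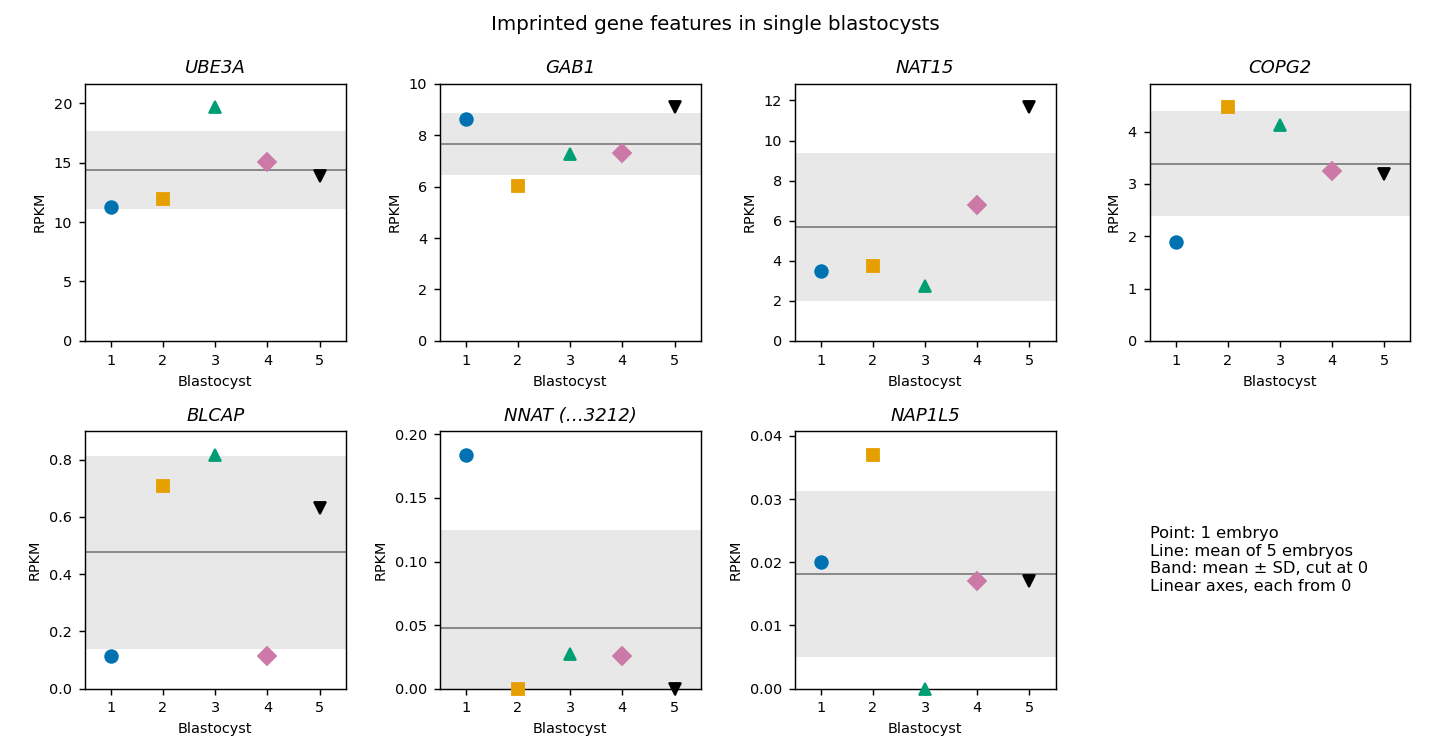
RPKM (linear axes from 0, which differ between panels) of the 7 features with any value above 0, for each of the 5 blastocysts; the line is the mean and the band the mean ± SD. *GAB1* varied least, *NAT15* was highest in blastocyst 5 at 11.7 RPKM, and *BLCAP* was at 0.115 RPKM in both blastocyst 1 and blastocyst 4.

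*UBE3A* encodes a ubiquitin ligase, which marks proteins for degradation and is known for its expression from the maternal copy in neurons. It was the highest of the 9 features and ranked 2278 among all 24616 by mean RPKM. It had 11.3, 12.0, 19.7, 15.0 and 13.9 RPKM in blastocysts 1 to 5, in that order. Blastocyst 3 was the highest and blastocysts 1 and 2 were the lowest. The mean was 14.4 RPKM ± 3.32 (SD, n = 5) and the highest embryo was 1.74-fold above the lowest. Without blastocyst 3 the mean was 13.0 RPKM ± 1.72 (SD, n = 4). *ASB4*, the other gene of the set that acts in ubiquitination, encodes an adaptor that brings substrates to a ubiquitin ligase. Its value was 0 in all 5 embryos. A listed 0 does not show that no reads fell on the gene, since the study lists a SNP under this ID, and with no value above 0 the level that a count of 0 would still allow could not be derived.

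*GAB1* encodes a docking protein that passes signals on from activated growth factor receptors. Its RPKM values in blastocysts 1 to 5 were 8.62, 6.03, 7.27, 7.31 and 9.10. The embryos lay close together, with blastocyst 2 at the low end. The mean was 7.67 RPKM ± 1.22 (SD, n = 5), and the fold between the highest and the lowest embryo was 1.51, the smallest of the 5 imprinted gene features that were above 0 in all embryos.

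*NAT15* encodes an N-terminal acetyltransferase. In blastocysts 1 to 5 it had 3.47, 3.72, 2.73, 6.78 and 11.7 RPKM. Blastocysts 1 to 3 lay close together, blastocyst 4 was above them, and blastocyst 5 was the highest. The mean was 5.68 RPKM ± 3.69 (SD, n = 5), and the highest embryo was 4.27-fold above the lowest. The mean was 4.18 RPKM ± 1.78 (SD, n = 4) without blastocyst 5 and 6.41 RPKM ± 3.82 (SD, n = 4) without blastocyst 3, the lowest embryo. The smallest numbers of whole reads that give these values at the relative depths were 63, 73, 57, 143 and 251 in the embryos in order. Taken as such, the 95% Poisson interval was 10.3 to 13.2 RPKM in blastocyst 5 and 5.71 to 7.98 RPKM in blastocyst 4, and these intervals, of embryos chosen for their values, did not overlap. Amplified reads are not independent molecules, and this and all following intervals cover counting error only.

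*COPG2* encodes a subunit of the coat of vesicles that move proteins within the early secretory pathway. The values were 1.89, 4.47, 4.14, 3.24 and 3.18 RPKM in blastocysts 1 to 5. Blastocyst 1 was below the others, and blastocysts 4 and 5 were almost equal. The mean was 3.38 RPKM ± 1.00 (SD, n = 5).

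*BLCAP* encodes a small membrane protein and *NNAT* encodes neuronatin, a small proteolipid of neural and endocrine cells. In mammals *NNAT* lies within an intron of *BLCAP*, and in the RefSeq annotation of cattle used here the span of *NNAT* also falls inside that of *BLCAP*. In the deposited table the 3 features take consecutive rows, with *BLCAP* between the pair of *NNAT* IDs. Whether reads were counted by strand is not given in the sources used here, so reads of overlapping genes cannot be told apart with certainty. *BLCAP* had 0.115, 0.708, 0.817, 0.115 and 0.630 RPKM in blastocysts 1 to 5. The embryos fell apart into a low pair, blastocysts 1 and 4, and the 3 others, and the highest embryo was 7.10-fold above the lowest. The mean, which lies between these levels, was 0.477 RPKM ± 0.337 (SD, n = 5), or 0.392 RPKM without blastocyst 3, which is under the threshold of 0.4 RPKM.

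The *BLCAP* values correspond to at least 6, 40, 49, 7 and 39 reads in the embryos in order. If these are the reads, the 95% Poisson interval reached up to 0.250 RPKM in blastocyst 1 and 0.237 RPKM in blastocyst 4, and it started at 0.506 RPKM in blastocyst 2, 0.604 RPKM in blastocyst 3 and 0.448 RPKM in blastocyst 5. The intervals of the low pair did not overlap those of the other embryos, but the pair was chosen on these values, so this is a description. Any larger number of reads behind the same values would give narrower intervals. Blastocysts 1 and 4 were the lowest embryos in 6.19% of the 9490 features averaging 0.4 RPKM or more. Among the 10 such features within 10 rows on either side of the 3 features, this was the case in 1, which ranged from 1.38 to 2.80 RPKM.

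**Figure D2:**
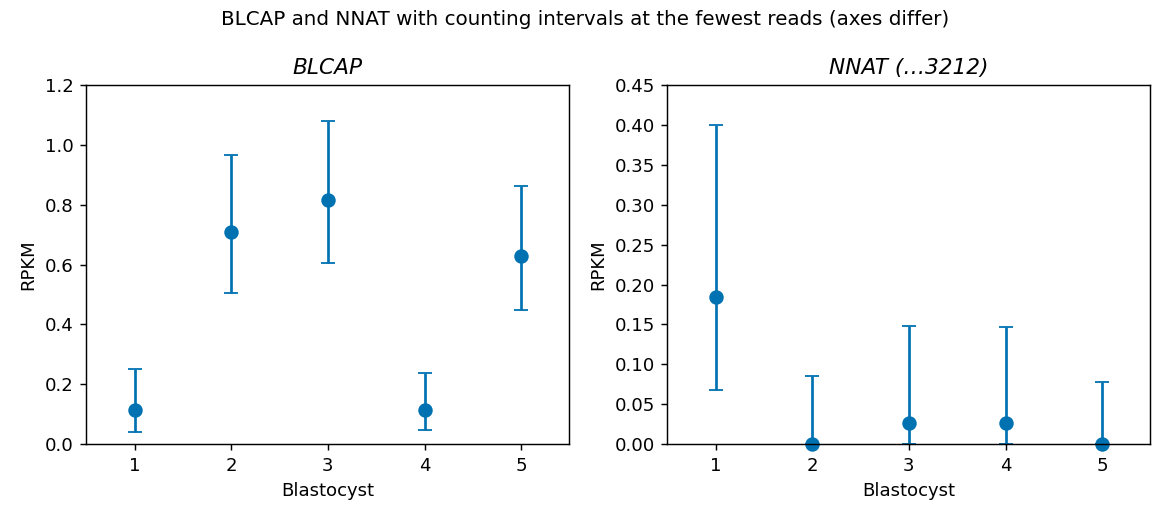
RPKM of *BLCAP* and of the *NNAT* feature ENSBTAG00000003212 in each of the 5 blastocysts (linear axes from 0, which differ), with bars for the 95% Poisson interval at the fewest reads that give the values, or up to 3 reads where the value is 0. For *BLCAP* the intervals of blastocysts 1 and 4 end at 0.250 and 0.237 RPKM, below the start of the others, and for *NNAT* all bars overlap.

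The *NNAT* feature ENSBTAG00000003212 had 0.184, 0, 0.027, 0.026 and 0 RPKM in blastocysts 1 to 5. Blastocyst 1 was the highest embryo and the sole one with *NNAT* above *BLCAP*, both of them at 6 reads at the least, with overlapping intervals. Blastocyst 4, with the same *BLCAP* value as blastocyst 1, had a low *NNAT* value. The mean was 0.0474 RPKM ± 0.0775 (SD, n = 5), or 0.0133 RPKM without blastocyst 1. The values correspond to at least 6, 0, 1, 1 and 0 reads. At these numbers the 95% Poisson interval of blastocyst 1 was 0.0673 to 0.399 RPKM, and those of blastocysts 3 and 4 reached 0.148 and 0.147 RPKM, so the separate intervals overlapped. The CV between embryos was 164%, where the 200 features nearest in mean RPKM, among all those above 0 in any embryo, had a median of 131% (quartiles 101% and 173%), so its spread was within what features at this level showed. If a listed 0 is a count of 0, taken as allowing 3 reads, it leaves room for up to 0.0849 RPKM in blastocyst 2 and 0.0774 RPKM in blastocyst 5. The study also lists SNP under ENSBTAG00000003212 but does not name the embryos. Whether any reads fell on it in blastocysts 2 and 5 therefore cannot be told. The *NNAT* feature ENSBTAG00000045928 was listed at 0 in every embryo, and as for *ASB4* this does not show that no reads fell there, since the study lists a SNP under this ID too. The allele frequencies that the study gives under *BLCAP* and ENSBTAG00000045928 recur under ENSBTAG00000003212, so the entries may be the same SNP. This was not tested.

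*NAP1L5* belongs to the nucleosome assembly protein family and is a retrogene without introns. Its values in blastocysts 1 to 5 were 0.020, 0.037, 0, 0.017 and 0.017 RPKM, or at least 1, 2, 0, 1 and 1 reads. Its mean was 0.0182 RPKM ± 0.0131 (SD, n = 5), or 0.0228 RPKM without blastocyst 3. If the 0 in blastocyst 3 is a count of 0, it allows up to 0.0516 RPKM, which is above the value of every embryo. The study lists a SNP under this ID too but does not name the embryo. Whether any reads fell on it in blastocyst 3 therefore cannot be told. Differences between embryos were not tested for this feature.

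The order of the levels was compared between neighbours, as paired differences of log2(RPKM + 0.1) within embryos, for the 5 pairs with at least one mean of 0.4 RPKM or more. The pairs and their direction were set by sorting these same values, so the differences are a description, and no p is given: over 5 embryos the exact two-sided sign-flip permutation test cannot go below 0.063, and no pair passed 0.05. *UBE3A* was above *GAB1* in 5 of 5 embryos, by 0.88 on the log2 scale (SE 0.18, n = 5). *COPG2* lay above *BLCAP* in 5 of 5 embryos, by 2.81 (SE 0.34, n = 5), or by 1.57 with a pseudocount of 1 RPKM. *GAB1* exceeded *NAT15* in 4 of 5 embryos, by 0.62 (SE 0.33, n = 5), with blastocyst 5 as the exception. *NAT15* exceeded *COPG2* in 3 of 5 embryos, by 0.58 (SE 0.44, n = 5), and by 0.26 without blastocyst 5. *BLCAP* exceeded *NNAT* in 4 of 5 embryos, by 1.82 (SE 0.69, n = 5). The size of this last difference is set mostly by the pseudocount, since *NNAT* is near 0, with 3.56 at 0.01 RPKM and 0.47 at 1 RPKM. The place of *NAT15* changed between embryos, as it lay above *GAB1* and *COPG2* in blastocyst 5 and below both in blastocysts 2 and 3.

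The spread between embryos depends on the level of a gene, so the coefficient of variation (CV) of each feature was set beside that of the 200 features nearest in mean RPKM, as a description without a test. *NAT15* had a CV of 65.1%, whereas the median of the features near it was 32.1% (quartiles 22.4% and 42.0%), and its CV was above that of 92.5% of them. Without blastocyst 5 its CV was 42.7% and above that of 69.5% of the features near it. *GAB1* stood at the other end of the 5 expressed features, with a CV of 15.9% against a median of 29.9% (quartiles 20.3% and 41.7%). Its CV was above that of only 20 of the 200 features near it, and above 22.0% of them once all embryos were brought to a common median.

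The CV of the other 3 expressed features was closer to the middle of those near them. *UBE3A* had a CV of 23.1% against a median of 25.0% (quartiles 17.1% and 34.2%), above 45.5% of the features near it, and its CV was 13.1% without blastocyst 3, which left it above 17.5% of them. *COPG2* had a CV of 29.7% against a median of 37.7%, above 33.5% of the features near it. Leaving out blastocyst 1 lowered its CV to 17.2%, above 13.0% of them. *BLCAP*, with the largest CV of the expressed features at 70.7%, had the spread that is usual at its level, where the median was 70.7% and its CV was above 50.0% of the features near it. Without blastocyst 4 its CV was 54.8%, above 26.5% of them.

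**Figure D3:**
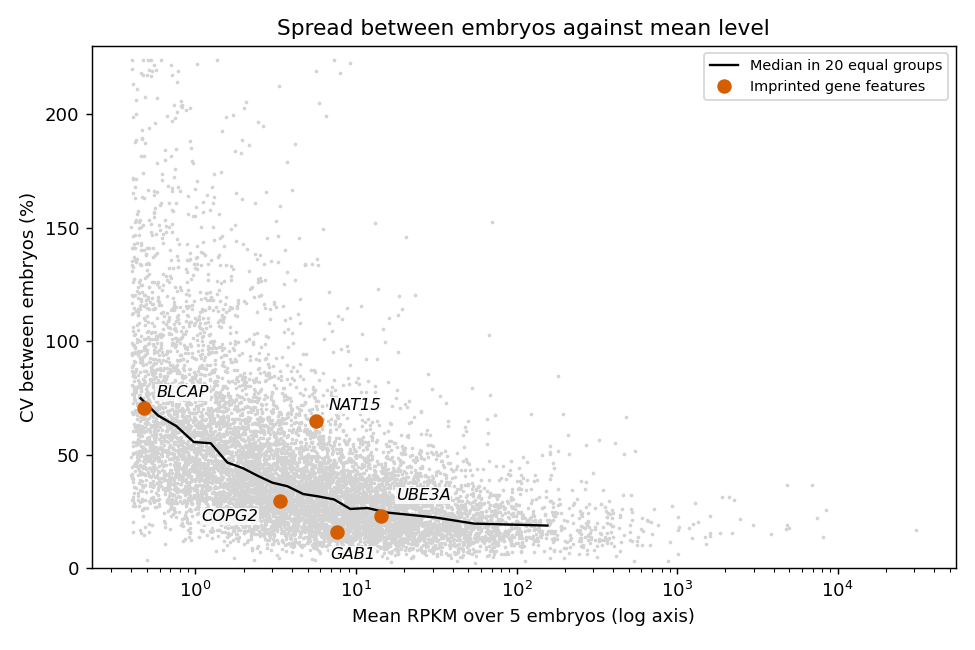
CV between the 5 embryos (linear axis) against mean RPKM (log axis) for the 9490 features averaging 0.4 RPKM or more (grey), with the median in 20 groups of equal size (line) and the 5 expressed imprinted gene features (orange). *NAT15* at 65.1% lies above the line, *GAB1* at 15.9% below it, and *BLCAP* at 70.7% on it.

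The spread of the expressed genes was also set beside counting error, with reads treated as independent molecules, which amplified reads are not. At the fewest reads that fit the values, with a wide tolerance on the depth, counting alone would give an expected CV of at most 9.55% for *UBE3A*, 7.34% for *GAB1*, 9.24% for *NAT15*, 6.86% for *COPG2* and 18.8% for *BLCAP*. Each of these is under the CV measured between embryos. Error from amplification is not included, and the cause of the spread was not tested. For *NAP1L5* the CV was 72.2%, and the CV expected from counting was up to 99.6%, an upper limit at the fewest reads. Whether the spread of *NAP1L5* went beyond counting was not tested. Its CV was above that of only 7 of the 200 features near it in mean RPKM, among those above 0 in any embryo (median 152%, quartiles 107% and 224%), of which 195 were at 0 in an embryo. For *NNAT* (ENSBTAG00000003212) the CV of 164% stood beside an expected 79.1%, but rested on as few as 8 reads.

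No embryo was high or low in all genes. A single embryo was called apart where its gap to the next embryo was more than 0.71 of the whole range (Dixon's limit for 5 samples). None of the 5 expressed features passed this limit, which 10.1% of all features averaging 0.4 RPKM or more did. Of the 2 features between 0 and 0.4 RPKM on average, *NNAT* (ENSBTAG00000003212) passed it, in blastocyst 1, as did 25.6% of all features above 0 in any embryo. On the log2(RPKM + 0.1) scale, as the difference from the mean of the gene over the 5 embryos, blastocyst 5 was at 1.24 for *NAT15* and at 0.26 for *GAB1*, the highest embryo in both, but at -0.02 for *UBE3A*. Blastocyst 3 was the highest embryo for *UBE3A* (0.48) and *BLCAP* (0.94) and the lowest for *NAT15* (-0.82). Blastocyst 1 was the lowest for *UBE3A* (-0.32) and *COPG2* (-0.75), and shared the lowest *BLCAP* value with blastocyst 4, but was above the mean for *GAB1* (0.18). Blastocyst 2 was the lowest for *GAB1* (-0.33) and the highest for *COPG2* (0.45).

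**Figure D4:**
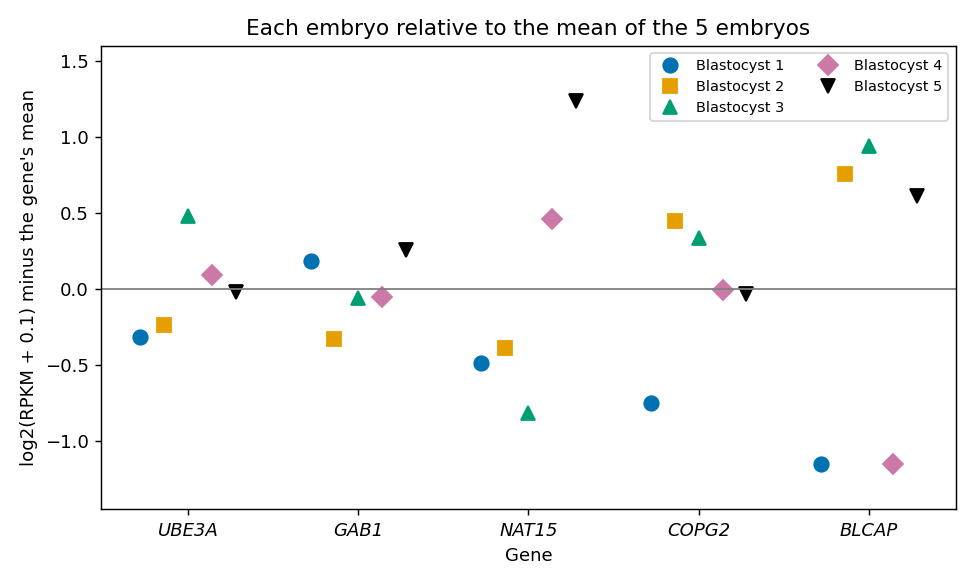
Difference of log2(RPKM + 0.1) in each of the 5 blastocysts from the mean of the gene over all 5 (linear axis), for the 5 expressed imprinted gene features. The embryos change places between genes, with blastocyst 5 at 1.24 for *NAT15* and blastocysts 1 and 4 at -1.15 for *BLCAP*.

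Features with the most similar pattern over the 5 embryos were sought among 7776 features averaging 1 RPKM or more, by the root mean square difference of these log2 values. The measure is small where both features vary little, so its size cannot be compared between genes of different spread. With so few embryos and so many candidates, close matches are found easily, and the table gives no names for them. The nearest to *UBE3A* was ENSBTAG00000000308, at 0.04, with 14.9, 16.2, 27.8, 20.4 and 19.6 RPKM in the embryos in order. The nearest to *GAB1* was ENSBTAG00000002073 at 0.05 and the nearest to *COPG2* was ENSBTAG00000019608 at 0.05. The nearest to *NAT15* was ENSBTAG00000004436 at 0.18, with 3.56, 3.54, 2.49, 5.13 and 8.73 RPKM in the embryos in order, but it was at rank 37 without blastocyst 5 and 17 without blastocyst 3. The nearest to *BLCAP* was ENSBTAG00000034992 at 0.28, with 1.14, 3.34, 3.84, 1.21 and 2.60 RPKM, but it was only at rank 124 with a pseudocount of 1 RPKM.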

How the data were processed

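The authors trimmed the start of the reads, aligned these to UMD3.1 (Ensembl genes) in CLC Genomics Workbench, and deposited RPKM values per feature and embryo; RPKM refers to exon models, and how strand and reads with several matches were handled is not given in the sources used here. These values were used as deposited, without a count model. Members, lists and tests were chosen with earlier results of these data known. Named features were the 9 members and, for each with a mean of at least 0.4 RPKM, the feature nearest in pattern. Lists of other imprinted genes and of cell type markers could not be used, since no RefSeq entry carried the IDs of the table.

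Relative depth was the ratio of RPKM values between 0.1 and 1 that recurs for equal numbers of reads. The fewest whole reads were those giving all 5 values within rounding and a depth tolerance of 0.0003, or 0.001 as the wide tolerance, limits set after seeing the data. Features of similar level were 100 above and 100 below in mean RPKM. Python 3.11.15, numpy 2.4.6, pandas 2.3.3 and scipy 1.17.1 were used, and the procedures were tested on simulated data. For the fewest reads, the simulated features had few reads, unlike *UBE3A*, *GAB1*, *NAT15* and *COPG2*, and were checked only up to a common factor. Alternatives covered thresholds, pseudocounts, scaling, the number of near features and the omission of each embryo.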

Additional observations from a re-analysis of the deposited data

Results flagged for a closer look

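The *NNAT* feature ENSBTAG00000003212 had 0.184 RPKM in blastocyst 1, and the gap to the next embryo was 0.853 of the whole range, above the critical value of 0.71 for 5 samples. Chance flags about 1 in 20 groups of values with normal spread, but low features have few reads: 25.6% of the 16510 features above 0 in any embryo passed the same value, as did 43.0% of the 200 features nearest in mean RPKM. Of at least 8 reads in all, at least 6 were in blastocyst 1. None of the other 6 features with values above 0 passed.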

How the results depend on the processing

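All 45 differences between neighbours in the order of levels kept their direction under the alternatives, but not their size. These were the other pseudocounts (0.01 and 1 RPKM), the same median in every embryo, quantile normalization and the omission of each embryo. Pseudocounts and scalings keep the order of genes within an embryo, so only the omissions could readily turn a direction. *BLCAP* minus *NNAT* was 3.56 and 0.47 on the log2 scale at pseudocounts of 0.01 and 1 RPKM, *COPG2* minus *BLCAP* was 1.57 at 1 RPKM, and *NAT15* minus *COPG2* was 0.26 without blastocyst 5. The means moved by less than 1 SD under both scalings. Leaving out an embryo cannot move a mean that far, but it lowered that of *NNAT* (ENSBTAG00000003212) from 0.0474 to 0.0133 RPKM without blastocyst 1. Features averaging 0.4 RPKM or more numbered 5, with 4 to 5 when an embryo was left out (4 without blastocyst 3). They numbered 4 at 1 RPKM and 7 at any value above 0. The share of near features with a lower CV was less stable. For *BLCAP* it was 57.0% with 100 near features and 58.5% by the SD of log2 values with a pseudocount of 0.1 or 0.01 RPKM. For *GAB1* it was 22.0% with the same median in every embryo and 21.5% after quantile normalization. With each embryo left out, it ran from 26.5% to 64.0% for *BLCAP*, which gave no value without blastocyst 3, from 13.0% to 47.5% for *COPG2*, from 10.5% to 20.5% for *GAB1*, from 69.5% to 96.0% for *NAT15* and from 17.5% to 55.5% for *UBE3A*. The cause was not tested. The feature nearest in pattern was no longer the nearest in 30 of 45 recomputations, and that of *BLCAP* fell to rank 124 at a pseudocount of 1 RPKM. With each embryo left out, the rank ran from 8 to 14 for *BLCAP*, from 3 to 37 for *NAT15*, from 1 to 13 for *GAB1*, from 3 to 7 for *UBE3A* and from 2 to 3 for *COPG2*.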
